A study of Sus scrofa with 36 samples.

Results

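The oligodendrocyte and myelin genes of the pig cerebellum are described here as a set of 32 listed genes that covers the line from precursor cell to myelinating oligodendrocyte. By gene symbol, 29 of the 32 were matched to 1 of the 31907 Ensembl pig gene identifiers counted, and all 29 had enough reads to be tested. MOBP, MAL and MYRF were not matched and are named only. Oligodendrocytes arise from dividing precursor cells, which carry the growth factor receptor PDGFRA and the proteoglycan CSPG4 (NG2). They pass through a short premyelinating stage and then wrap axons in myelin, a membrane of compacted protein and lipid layers rich in galactolipids. In the pig this happens largely around birth and in the first weeks of life, and in the cerebellum myelin lies mainly in the white matter, below a granule cell layer packed with neurons.

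Cerebellar RNA came from 36 male and female piglets in a 2 × 2 design of diet and birth weight, with 9 piglets in each cell of the design. The animals were term-born crosses of Danish landrace, Yorkshire and Duroc pigs, were 3 days old when formula feeding began and were fed for 3 weeks. The VEG formula contained vegetable oil and the MILK formula contained bovine milk fat. Piglets were of normal birth weight (NBW, called NORM in the labels) or intrauterine growth restricted (IUGR, chosen for low birth weight and an altered head shape). The groups are named by both factors, as in VEG-NBW and MILK-IUGR. All piglets, whatever their group, were killed with pentobarbital under tiletamine-zolazepam, xylazine, ketamine and butorphanol, and no sow-reared group is among the samples. Every piglet is 1 library, and the labels do not say which piglets were littermates, so litter could not enter the models.

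Values are CPM, the counts of a library divided by its total on genes and scaled to a fixed sum, after TMM scaling, and a gene is called at an adjusted p under 0.05. Results rest on 33 libraries with 15516541 to 23027502 read pairs on genes, 8 per group and 9 in MILK-IUGR. Piglets 202 (VEG-NBW), 210 (VEG-IUGR) and 213 (MILK-NBW) were left out, since each had the largest share of read pairs on no gene in a group from which the study removed 1 library for low RNA integrity. That share was 22.3%, 14.3% and 12.1% in these 3 libraries, and between 7.67% and 12.5% in the others. In bulk tissue, fewer cells of a type and less RNA per cell cannot be told apart. Markers of the lineage were present: SOX10, the transcription factor shared by the whole lineage, lay between 49.1 and 191 CPM in the 33 libraries.

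MBP, the basic protein that holds the inner faces of the myelin membrane together, lay at chromosome 1:147649516-147685289 in Sscrofa11.1 and gave 72753 to 542956 read pairs per library. Its lowest, median and highest levels were 4393, 8262 and 16560 CPM in VEG-NBW and 4899, 8829 and 28290 CPM in VEG-IUGR. They were 7379, 11580 and 18620 CPM in MILK-NBW and 6400, 10680 and 17040 CPM in MILK-IUGR. The 4 groups overlapped over most of their ranges, and the highest level, in piglet 227 of VEG-IUGR, was 6.44 times the lowest, in piglet 205 of VEG-NBW. Group means were 8790 ± 3922 (SD, n = 8), 11220 ± 7853 (n = 8), 11630 ± 3462 (n = 8) and 11410 ± 4013 CPM (n = 9) in the same order.

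**Figure D1:**
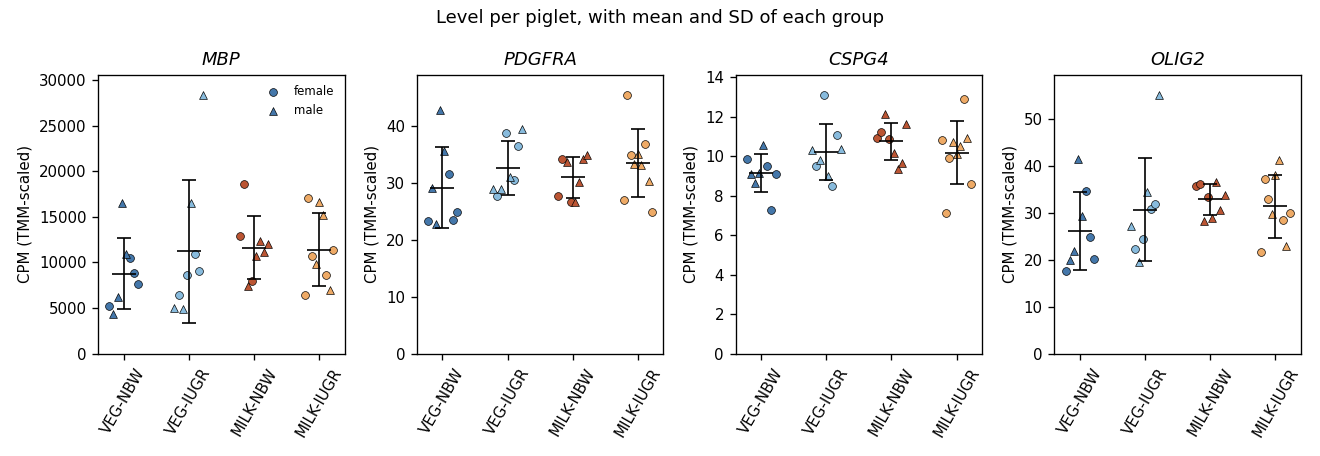
Level of the myelin gene MBP and the 3 precursor genes PDGFRA, CSPG4 and OLIG2 in each of 33 piglets, in CPM on linear axes from 0, with 1 panel per gene and 1 column per group. Circles are females, triangles are males and bars show the group mean and SD, and the 4 groups overlap in every panel, with MBP reaching 28290 CPM in 1 VEG-IUGR piglet.

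Among the precursor genes, PDGFRA, the receptor for platelet-derived growth factor A on precursor cells (chromosome 8:40966568-41021440), spanned 22.8 to 45.4 CPM over the 33 piglets, with a highest level 1.99 times the lowest. Its lowest, median and highest levels were 22.8, 27.1 and 42.8 CPM in VEG-NBW, 27.7, 30.8 and 39.5 CPM in VEG-IUGR, 26.7, 31.96 and 34.9 CPM in MILK-NBW and 24.9, 33.3 and 45.4 CPM in MILK-IUGR. CSPG4, a surface proteoglycan of precursor cells that vascular pericytes carry as well (chromosome 7:57949182-57988602), lay between 7.30 and 10.6 CPM in VEG-NBW with a median of 9.13. The corresponding values were 8.51, 13.1 and 10.1 CPM in VEG-IUGR, 9.37, 12.2 and 10.9 CPM in MILK-NBW, and 7.13, 12.9 and 10.5 CPM in MILK-IUGR. In VEG-NBW and MILK-NBW the CSPG4 ranges shared only the stretch from 9.37 to 10.6 CPM. OLIG2, a transcription factor needed to form the lineage and retained in mature cells (chromosome 13:196596838-196602197), lay between 17.5 and 41.4 CPM in VEG-NBW with a median of 23.4. It lay between 19.6 and 54.9 CPM in VEG-IUGR (median 29.0), between 28.3 and 36.4 CPM in MILK-NBW (median 33.6) and between 21.6 and 41.2 CPM in MILK-IUGR (median 30.0). All 8 MILK-NBW piglets were inside the OLIG2 range of VEG-NBW. How strand was treated in counting is not given in the sources used here, so reads of overlapping genes on the other strand cannot be told apart.

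The ranges of the other members were as wide as those of MBP for some and as narrow as those of PDGFRA for others. CNP, an enzyme of uncompacted myelin, lay between 258 and 711 CPM in VEG-NBW, 278 and 990 CPM in VEG-IUGR, 434 and 675 CPM in MILK-NBW and 314 and 716 CPM in MILK-IUGR. UGT8, the enzyme that makes galactosylceramide, had means of 374 ± 142, 430 ± 223, 451 ± 88.5 and 474 ± 161 CPM in that order of groups, and MOG, a protein of the outermost myelin surface, had 63.2 ± 21.1, 76.9 ± 36.5, 75.2 ± 18.2 and 78.7 ± 23.6 CPM. The ranges of the 4 groups overlapped for each of these genes. SOX10 had means of 83.2 ± 25.3, 99.5 ± 42.6, 102 ± 16.1 and 92.9 ± 23.2 CPM, and BCAS1, a protein of early myelinating oligodendrocytes, had 362 ± 98.8, 448 ± 206, 455 ± 92.0 and 467 ± 125 CPM. The RNA-binding protein QKI, which stabilises myelin transcripts, was the least variable member, with means from 658 ± 101 CPM in VEG-NBW to 695 ± 65.7 CPM in MILK-IUGR. CNTN2, an axon contact protein, had the opposite order, with means from 467 ± 79.1 CPM in VEG-NBW to 433 ± 77.3 CPM in MILK-IUGR. Gene lengths were not used, so these levels compare piglets and not genes.

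To ask whether the fat source changed these genes, MILK and VEG piglets were compared with sex and birth weight in the model. None of the 29 genes was called by edgeR's quasi-likelihood test, where 0% of all 15356 genes tested were called. None had an unadjusted p under 0.05 either, against 4.26% of all genes, and DESeq2 and limma voom gave the same counts of 0 and 0. The 3 smallest p values belonged to CSPG4, OLIG2 and BCAS1. CSPG4 had a log2 fold change of 0.11 (SE 0.070, 95% interval -0.03 to 0.25), OLIG2 one of 0.18 (SE 0.12, interval -0.06 to 0.42) and BCAS1 one of 0.19 (SE 0.14, interval -0.10 to 0.48), each with an adjusted p of 0.985. MBP stood at 0.22 (SE 0.21, interval -0.20 to 0.64) and PDGFRA at 0.058 (SE 0.081, interval -0.11 to 0.22). The estimate was positive for 27 of 29 genes with a median of 0.096, while the median over all genes was -0.0035. With 2 surrogate variables the median of the 29 was 0.014 with 19 positive. Without piglet 227 it was 0.18, with 6 genes at an unadjusted p under 0.05 and no call. The share of all genes under 0.05 in that refit is not given here.

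Birth weight was compared in the same way, IUGR against NBW, with sex and diet in the model. No gene of the set was called (0% of all genes) or had an unadjusted p under 0.05 (2.19% of all genes) in edgeR, DESeq2 or limma voom. PDGFRA came nearest, with 22.8, 29.7 and 42.8 CPM as lowest, median and highest level in 16 NBW piglets and 24.9, 33.3 and 45.4 CPM in 17 IUGR piglets. These ranges overlapped almost entirely, and the log2 fold change was 0.15 (SE 0.082, interval -0.02 to 0.31, adjusted p = 0.9996). BCAS1 followed with 0.18 (SE 0.14) and ADAMTS4, a protease that cleaves matrix proteoglycans, with 0.15 (SE 0.13). MBP stood at 0.16 (SE 0.20, interval -0.26 to 0.58), OLIG2 at 0.083 (SE 0.12) and CSPG4 at 0.036 (SE 0.070). The median over the 29 genes was 0.11, with 26 positive estimates. It was 0.0027, with 15 positive, without piglet 227, and 0.045 under limma voom. With 2 surrogate variables it was 0.12, with 27 positive and 2 genes at an unadjusted p under 0.05. Without piglet 216 it was 0.17, with 27 positive and 1 such gene. The share of all genes under 0.05 in these refits is not given here.

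Whether diet acted differently in IUGR and NBW piglets was tested as the interaction, the MILK to VEG difference in IUGR minus that in NBW. None of the 29 genes was called (0% of all genes) or had an unadjusted p under 0.05 (6.09% of all genes) in edgeR, DESeq2 or limma voom. CSPG4 had an interaction of -0.23 on the log2 scale (SE 0.14, interval -0.51 to 0.05, adjusted p = 0.785). SIRT2, a deacetylase found in myelin, had -0.29 (SE 0.19, adjusted p = 0.803) and SOX10 had -0.37 (SE 0.26, adjusted p = 0.808). OLIG2 had -0.28 (SE 0.24), MBP -0.35 (SE 0.41, interval -1.19 to 0.49) and PDGFRA -0.041 (SE 0.17). The estimate was negative for 26 of 29 genes and had a median of -0.21, which was -0.048 without piglet 227. With 2 surrogate variables in the model the median was 0.078, on the other side of 0. Without piglet 216 it was -0.32, with 2 genes at an unadjusted p under 0.05. The share of all genes under 0.05 in that refit is not given here.

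Within NBW piglets, MILK against VEG gave no call either. CSPG4 was the 1 gene of 29 with an unadjusted p under 0.05, while 6.67% of all genes were under that limit and 0% were called. DESeq2 likewise had 1 gene under the limit and no call. Its mean was 10.7 ± 0.956 CPM in 8 MILK-NBW piglets and 9.16 ± 0.951 CPM in 8 VEG-NBW piglets, a log2 fold change of 0.23 (SE 0.098, interval 0.03 to 0.43, edgeR unadjusted p = 0.0246, adjusted p = 0.721). OLIG2 had 0.32 (SE 0.17, interval -0.03 to 0.66, adjusted p = 0.744). GJB1, the gap junction protein connexin 32 of myelin loops, had 0.47 (SE 0.30, interval -0.14 to 1.07, adjusted p = 0.779), with 18.4 to 43.6 CPM in MILK-NBW and 8.15 to 43.6 CPM in VEG-NBW. MBP had 0.40 (SE 0.30, interval -0.20 to 0.998) and PDGFRA 0.079 (SE 0.12, interval -0.16 to 0.32). The 15 mature myelin genes (10 myelin proteins, 3 enzymes of myelin lipid and 2 axon contact proteins) had a median of 0.25, and TSPAN2 and CNTN2 were the 2 with a negative estimate. Under limma voom 4 genes had an unadjusted p under 0.05 (CSPG4, OLIG2, CNP and GJB1), and in a fit of these 2 groups alone 3 did (CSPG4, OLIG2 and BCAS1), all without a call. Without piglet 216 of VEG-NBW 8 genes did, again without a call, and the median of the 29 was 0.35. The share of all genes under the limit is not given here for these refits, so their counts have no background beside them. With 2 surrogate variables in the model the median of the 29 genes went from 0.21 to -0.026, with 11 positive estimates in place of 27.

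No marker of another cell type was called by edgeR between the same 2 groups, and their summed levels overlapped in every list. The 4 endothelial markers all had positive estimates, and PECAM1, a junction protein of endothelial cells, had a log2 fold change of 0.29 (unadjusted p = 0.0381, adjusted p = 0.738). Their sum lay between 180 and 241 CPM in MILK-NBW and between 140 and 210 CPM in VEG-NBW. The 7 astrocyte and Bergmann glia markers summed to 6735 to 9051 CPM in MILK-NBW and to 4946 to 11240 CPM in VEG-NBW. Of the 7 mural and fibroblast markers, ACTA2, smooth muscle actin, had 0.59 (unadjusted p = 0.0291, adjusted p = 0.727), and PDGFRB, a receptor of pericytes, had -0.0018, and the list summed to 536 to 1124 CPM and 490 to 955 CPM. The 8 granule neuron markers summed to 3559 to 4839 CPM and 3790 to 5451 CPM. The 3 choroid plexus markers all had negative estimates, with 2 of 3 at an unadjusted p under 0.05. These were CLIC6, a chloride channel protein, at -2.61 (SE 1.20, adjusted p = 0.735) and TTR at -2.60 (SE 1.18), while KCNJ13 had -0.42 (SE 0.39). Their sum lay between 4.18 and 39.3 CPM in MILK-NBW (median 24.5) and between 7.92 and 190 CPM in VEG-NBW (median 19.1). Of the Schwann cell markers, PMP2 had -0.79 (SE 0.47) and PRX 0.0084 (SE 0.16), and the list summed to 3.39 to 5.06 CPM and 3.26 to 5.3 CPM. None of the 8 Purkinje cell and 7 microglia markers had an unadjusted p under 0.05. Their part in the values of CSPG4 and the other oligodendrocyte genes was not tested.

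The other 3 contrasts between groups held no gene with an unadjusted p under 0.05 in edgeR, DESeq2 or limma voom. For MILK against VEG within IUGR, 3.9% of all genes were under that limit and 0% were called. ERMN, a cytoskeletal protein of the outer myelin lip, had 0.20 (SE 0.26), SIRT2 -0.099 (SE 0.13) and UGT8 0.16 (SE 0.23), each with an adjusted p of 0.996. MBP had 0.050 (SE 0.29, interval -0.54 to 0.64), PDGFRA 0.038 (SE 0.11), OLIG2 0.043 (SE 0.16) and CSPG4 -0.00065 (SE 0.095, interval -0.19 to 0.19). The 29 genes were split between 16 positive and 13 negative estimates with a median of 0.016, which was 0.16 without piglet 227 and -0.052 without piglet 207.

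For IUGR against NBW within VEG, where 2.29% of all genes were under the limit and 0% were called, CSPG4 had 0.15 (SE 0.098), CNP 0.31 (SE 0.21, interval -0.10 to 0.73) and BCAS1 0.30 (SE 0.21). MBP had 0.34 (SE 0.30, interval -0.26 to 0.94), PDGFRA 0.17 (SE 0.12) and OLIG2 0.23 (SE 0.17), and all of these had an adjusted p of 0.9996. The median of the set was 0.21, and it was 0.034 without piglet 227. Without piglet 216 of VEG-NBW it was 0.34, with 6 genes at an unadjusted p under 0.05, and the share of all genes is not given here. This contrast shares its VEG-NBW piglets with that of MILK against VEG within NBW. For IUGR against NBW within MILK, 6.24% of all genes were under the limit and 0% were called. PDGFRA had 0.13 (SE 0.12, adjusted p = 0.848), SIRT2 -0.13 (SE 0.13, adjusted p = 0.871) and ERMN 0.24 (SE 0.26, adjusted p = 0.875). MBP had -0.0079 (SE 0.29, interval -0.59 to 0.58), OLIG2 -0.051 (SE 0.16) and CSPG4 -0.077 (SE 0.095), and the median was -0.0079 with 14 positive estimates of 29. This median depended on single piglets of both groups. For MILK-IUGR it was 0.050 with 19 positive without piglet 233, -0.051 with 7 positive without piglet 226, and -0.045 with 6 positive without piglet 207. For MILK-NBW it was 0.035 with 21 positive without piglet 212, and -0.025 with 8 positive without piglet 218. With 2 surrogate variables it was 0.16, with 26 positive and 1 gene at an unadjusted p under 0.05. The share of all genes in that refit is not given here.

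**Figure D2:**
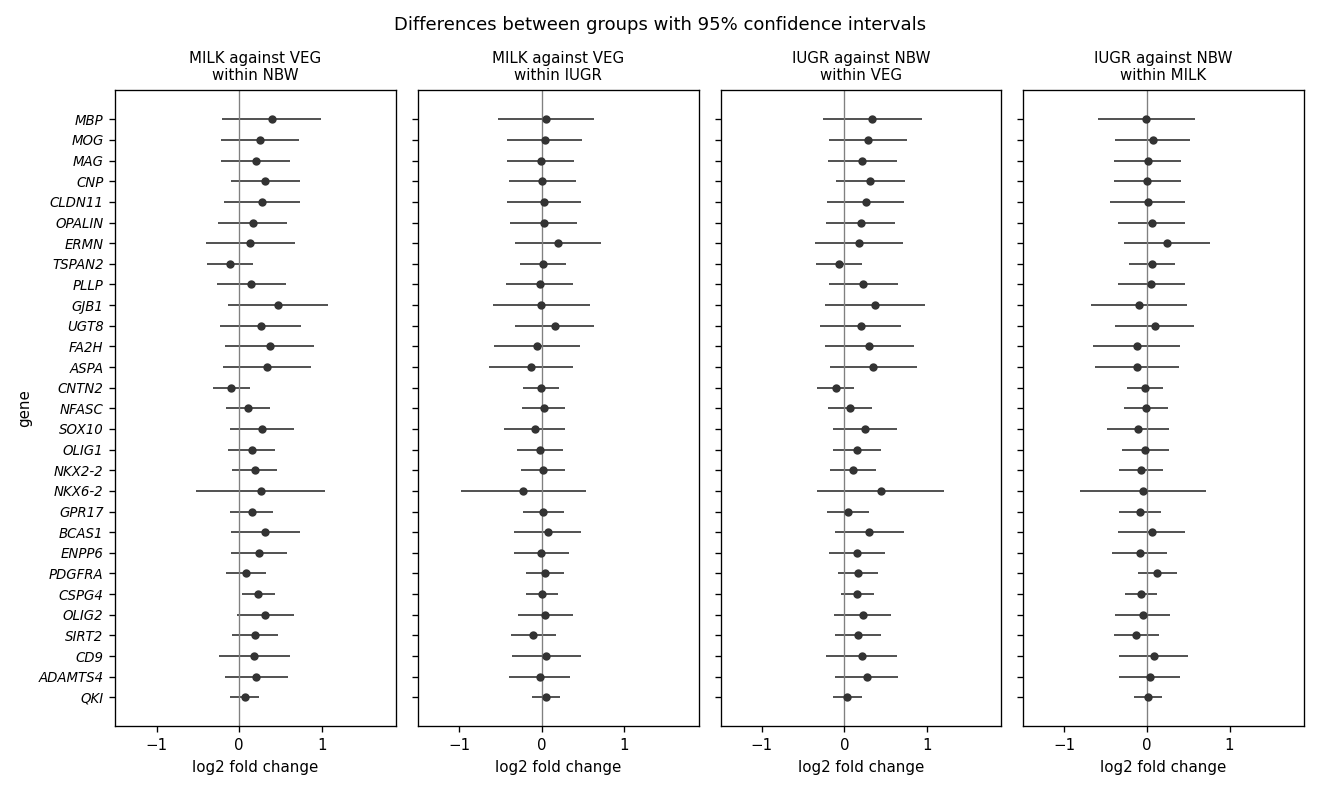
Log2 fold change of each of 29 genes (rows, grouped by role) in the 4 contrasts between groups, with points for the edgeR estimate and bars for its 95% confidence interval. Every interval crosses 0 except that of CSPG4 for MILK against VEG within NBW (0.03 to 0.43), which is not called after adjustment.

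The group ranges of all 29 genes overlapped in each of these 4 contrasts. Among all genes, 0.013% had ranges that did not overlap between MILK-NBW and VEG-NBW, 0% between MILK-IUGR and VEG-IUGR, 0% between VEG-IUGR and VEG-NBW and 0.00651% between MILK-IUGR and MILK-NBW. VEG-NBW nevertheless had the lowest mean of the 4 groups for 27 of 29 genes, and MILK-NBW had the highest for 14. The share of all genes with that order is not given here, so it cannot be called particular to the set. Since the genes varied together between piglets, as shown further on, these are not 27 separate observations. The 2 genes with another order were TSPAN2 and CNTN2, whose highest mean was in VEG-NBW.

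The mean standardised log2 CPM over all 29 genes, with 0 as the mean of all 33 piglets and 1 as an SD for each gene, gave the same picture. It was -0.38 ± 0.86 (SD) in VEG-NBW, 0.013 ± 1.05 in VEG-IUGR, 0.23 ± 0.42 in MILK-NBW and 0.12 ± 0.60 in MILK-IUGR. For the 15 mature myelin genes it was -0.33 ± 0.83, -0.011 ± 1.06, 0.18 ± 0.47 and 0.14 ± 0.62 in the same order. For the 3 precursor genes it was -0.60 ± 0.90, 0.10 ± 0.76, 0.29 ± 0.37 and 0.18 ± 0.56. For all 3 scores the largest difference between group means, that of MILK-NBW and VEG-NBW, was smaller than the SD in VEG-NBW and larger than the SD in MILK-NBW. Precursor scores of single piglets lay between -0.29 and 0.77 in MILK-NBW and between -1.52 and 0.84 in VEG-NBW. The scores describe chosen genes and were not tested.

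To compare precursor with mature genes within each piglet, the log2 CPM of MBP was subtracted from that of PDGFRA, CSPG4 and OLIG2. For PDGFRA the median difference was -8.26 in VEG-NBW, -7.91 in VEG-IUGR, -8.53 in MILK-NBW and -8.25 in MILK-IUGR, and single piglets ranged from -9.48 to -7.23. The largest difference between groups was for PDGFRA over MBP, -0.36 (SE 0.21) for MILK against VEG within NBW, with p = 0.116 in a two-sided exact permutation test and an adjusted p of 0.963 over the 18 tests of this kind. CSPG4 over MBP differed by -0.24 (SE 0.28) and OLIG2 over MBP by -0.092 (SE 0.16) in that contrast. For diet over both birth weights the differences were -0.26 (SE 0.18) for PDGFRA, -0.22 (SE 0.23) for CSPG4 and -0.11 (SE 0.12) for OLIG2. For birth weight they were 0.053 (SE 0.18), -0.060 (SE 0.23) and -0.025 (SE 0.12). All 18 adjusted permutation p values lay at 0.963 or above, so no shift between precursor genes and MBP was detected. The SEs lay between 0.12 and 0.39. The -0.36 for PDGFRA over MBP was larger than its SE of 0.21 and was not detected either. Shifts below the SE, and some above it, could therefore go undetected. MBP had a larger SD of log2 CPM over piglets (0.62) than OLIG2 (0.37), PDGFRA (0.25) or CSPG4 (0.19). The precursor score minus the mature myelin score ran the other way from these ratios within NBW. Its mean was -0.27 ± 0.60 (SD) in VEG-NBW and 0.11 ± 0.51 in MILK-NBW. Within IUGR it had the direction of the ratios, with 0.11 ± 0.77 in VEG-IUGR and 0.042 ± 0.60 in MILK-IUGR. The difference between these scores was not tested.

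Levels also differed between piglets of the same group, and most of the lineage rose and fell together. For MBP the highest level in a group was between 2.52 (MILK-NBW) and 5.78 times (VEG-IUGR) the lowest. Across the 33 piglets, log2 CPM of 24 of the 28 other genes had a Pearson correlation with MBP above 0.5, and the median r was 0.895. Over all 15355 other genes tested, 8.55% were above 0.5 and the median was 0.0039. Genes of 1 tissue component share library and depth, and these values describe how levels went up and down together.

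Within the myelin proteins, r with MBP was 0.964 for CLDN11, the tight junction protein of the myelin lamellae, 0.936 for CNP and 0.913 for MOG. MAG, which sits on the inner, axon-facing membrane, had 0.894, and PLLP, a proteolipid of compact myelin, had 0.941. OPALIN, a membrane glycoprotein of mature oligodendrocytes, had 0.894, ERMN 0.932 and GJB1 0.959. The enzymes of myelin lipid followed, with 0.969 for UGT8, 0.941 for FA2H, which makes the 2-hydroxy fatty acids of galactolipids, and 0.874 for ASPA, which releases acetate from N-acetylaspartate. Spearman's rho lay between 0.834 and 0.969 for these 11 genes. Each of them had the smallest permutation p that 100000 resamples can give (1e-05), and r over all 28 genes had a median of 0.861 without the 2 piglets of most extreme MBP level.

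The regulators and stage markers were spread more widely. OLIG1, the neighbour of OLIG2 on chromosome 13, had r = 0.911, SOX10 0.896, NKX6-2, a homeobox factor of mature cells, 0.703 and NKX2-2, one that acts at the start of differentiation, 0.698. Of the markers of newly formed cells, BCAS1 had the highest r of the 28 genes, 0.971, while ENPP6, a choline phosphodiesterase, had 0.776 and GPR17, a receptor that is switched off before myelination, had 0.624. QKI had 0.847, the tetraspanin CD9 0.922, ADAMTS4 0.918 and SIRT2 0.810.

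The 3 precursor genes differed from each other. OLIG2 followed MBP with r = 0.898 (Spearman's rho 0.906, adjusted permutation p = 2.33e-05 over 7 planned pairs), and PDGFRA followed it with r = 0.573 (rho 0.525, adjusted p = 0.000805). Without the 2 piglets of most extreme MBP level these were 0.862 and 0.549. CSPG4 had r = -0.075 with MBP (rho -0.058, permutation p = 0.679). PDGFRA and CSPG4 had r = 0.257 with each other (rho 0.335, adjusted p = 0.150), which became 0.623 without piglets 207 and 216, the 2 farthest from the median of PDGFRA. Those 2 piglets held 45.4 and 42.8 CPM of PDGFRA but 7.13 and 9.15 CPM of CSPG4. CSPG4 had r = 0.507 with PDGFRB (rho 0.408), with 0.671 in 16 females, 0.0868 in 17 males and 0.327 without the 2 piglets of most extreme CSPG4 level. The pair of CSPG4 and PDGFRB was chosen after the data were seen.

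The 2 axon contact proteins and TSPAN2 were less closely tied to MBP than most of the set. CNTN2, an adhesion protein of the juxtaparanode that granule neurons also make during development, had r = -0.370 (rho -0.370, adjusted permutation p = 0.0399 over 58 relations, r = -0.353 without the 2 piglets of most extreme MBP level). TSPAN2, a tetraspanin of early myelin, had r = -0.243 (adjusted permutation p = 0.192). NFASC, which glia and neurons use in different isoforms, had a positive r of 0.459 (adjusted permutation p = 0.00855). CNTN2 lay between 258 and 624 CPM and TSPAN2 between 9.42 and 21.5 CPM over all 33 piglets. Neither ran with GABRA6, a receptor subunit of granule neurons, with r = 0.0442 for CNTN2 and -0.00546 for TSPAN2, pairs that were also chosen after the data were seen. Of 28 genes, 25 had a positive r with MBP and an adjusted permutation p under 0.05 over the 58 relations. With PDGFRA, 21 of 27 genes had. The share of all genes past this limit is not given here. Above an r of 0.5 with PDGFRA were 19 of 28 genes, against 3.5% of all 15355 other genes tested. CNTN2 had r = -0.544 with PDGFRA (rho -0.360, adjusted permutation p = 0.00132), which was -0.343 without piglets 207 and 216. Median r with MBP was 0.83 in 16 females and 0.93 in 17 males.

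**Figure D3:**
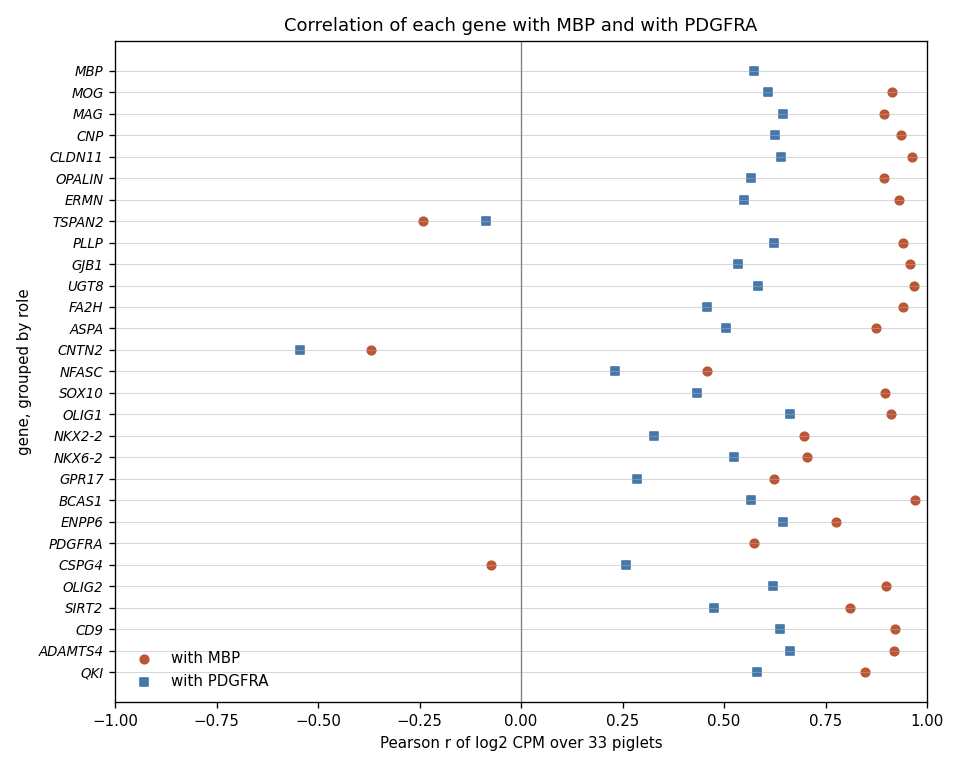
Pearson r of log2 CPM over 33 piglets between each gene (rows, grouped by role) and MBP (circles) or PDGFRA (squares). Most genes lie above 0.5 with MBP, while CNTN2 (-0.370), TSPAN2 (-0.243) and CSPG4 (-0.075) lie below 0.

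**Figure D4:**
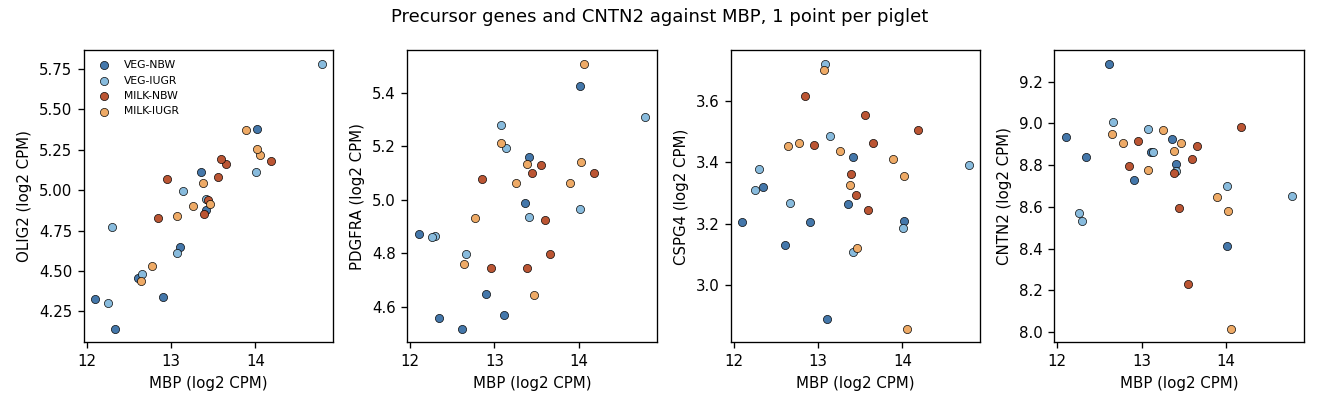
Log2 CPM of OLIG2, PDGFRA, CSPG4 and CNTN2 against that of MBP, with 1 point per piglet coloured by group. OLIG2 runs along a line with MBP (r = 0.898), PDGFRA scatters more widely (r = 0.573) and CSPG4 shows no trend (r = -0.075).

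MBP itself was lower in libraries with a larger share of read pairs on no gene (r = -0.457, rho -0.473, adjusted permutation p = 0.0107 over the 7 pairs), with r = -0.359 without the 2 piglets of most extreme MBP level, -0.279 in females and -0.521 in males. This share had a median of 10.1% in VEG-NBW, 9.46% in VEG-IUGR, 9.75% in MILK-NBW and 9.73% in MILK-IUGR. GABRA6 had r = -0.351 with MBP (rho -0.297, adjusted p = 0.0530). Neither was tested as a source of the spread in MBP.

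The spread was uneven between genes and groups. Over the 33 piglets, the SD of log2 CPM had a median of 0.42 over the 29 genes and of 0.21 over all genes tested. It was smallest for QKI (0.17), CSPG4 (0.19) and CNTN2 (0.24) and largest for MBP (0.62), GJB1 (0.63) and NKX6-2 (0.77), a gene with as few as 10 read pairs in a library. Within groups the median SD of the 29 genes was 0.44 in VEG-NBW, 0.51 in VEG-IUGR, 0.24 in MILK-NBW and 0.40 in MILK-IUGR. All 29 genes had a smaller SD in MILK-NBW than in VEG-NBW, as did 68% of all genes, and 26 of 29 had a smaller SD in MILK-IUGR than in VEG-IUGR, as did 53.6% of all genes. CNP lay between 434 and 675 CPM in MILK-NBW and between 258 and 711 CPM in VEG-NBW. The difference in spread was not tested, and the 29 genes are not separate observations of it.

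A few piglets account for the ends of these ranges. Piglet 227, a VEG-IUGR male, had the highest level of all 33 for 23 of the 29 genes, among them MBP, OLIG2 at 54.9 CPM and CNP at 990 CPM, and was among the top 3 for 26. Its score over all 29 genes was 2.02, and its score over the 8 granule neuron markers was -0.84. Piglet 205, a VEG-NBW male, had the lowest level for 12 genes and was among the lowest 3 for 20, with a score of -1.46. In the same VEG-NBW group, piglet 216 had a score of 1.14 and was among the top 3 for 14 genes.

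**Figure D5:**
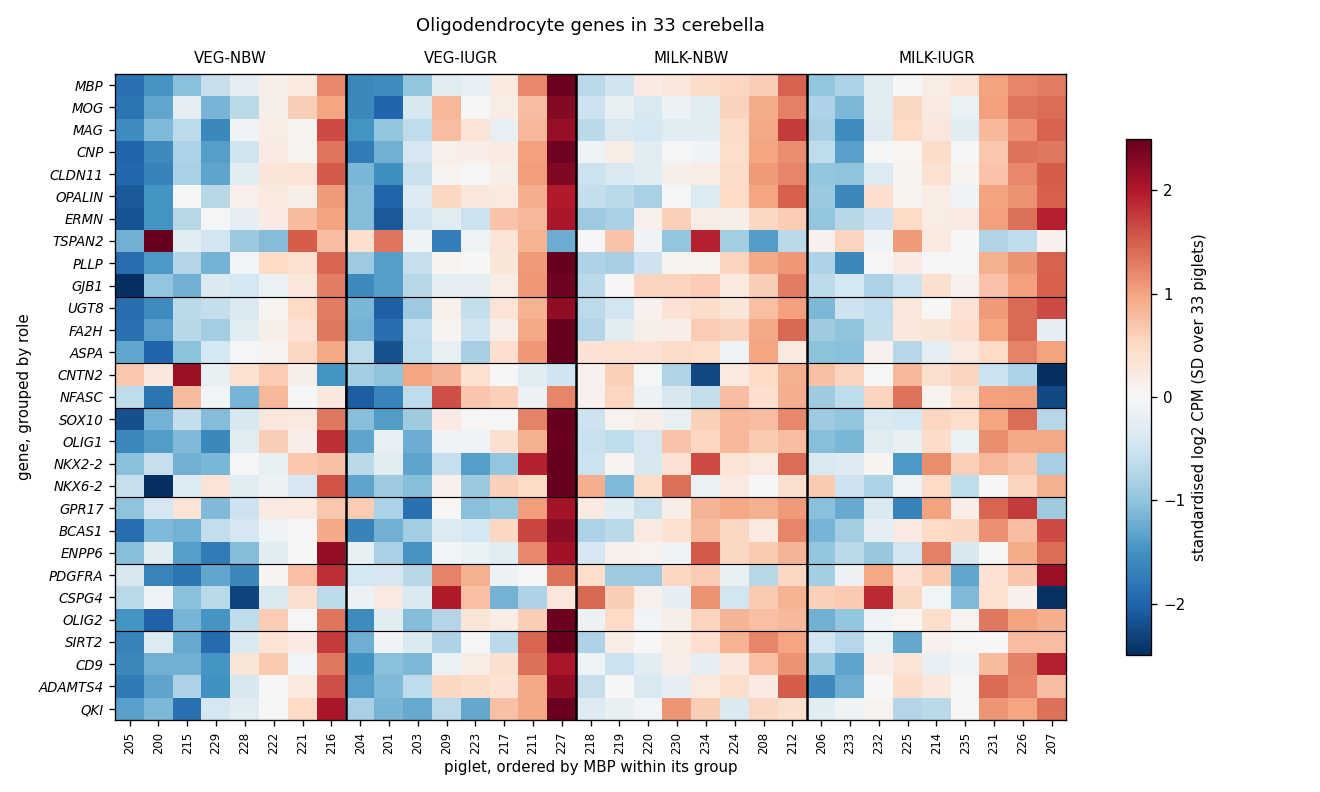
Standardised log2 CPM of 29 genes (rows, grouped by role) in 33 piglets (columns, by group and ordered by MBP within it), with red above and blue below the mean of a gene and 1 unit equal to its SD over piglets. Most rows change from blue to red together within each group, piglet 227 is the darkest column, and TSPAN2, CNTN2 and CSPG4 follow a different order.

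Males and females were compared with the 4 groups in the model. None of the 29 genes was called by edgeR, where 0.163% of all genes were, and none had an unadjusted p under 0.05, against 2.94% of all genes. DESeq2 gave 0 and 0, and limma voom gave no call and 1 gene with an unadjusted p under 0.05 (CNTN2, log2 fold change -0.15). GPR17 came nearest, with 103 ± 16.8 CPM in 16 females and 117 ± 23.1 CPM in 17 males, a log2 fold change of 0.17 (SE 0.089, interval -0.0072 to 0.35, adjusted p = 0.9997). The ranges, 76.0 to 133 CPM in females and 78.6 to 161 CPM in males, overlapped. NKX6-2 had 0.50 (SE 0.27) and NKX2-2 0.14 (SE 0.095), while MBP had 0.19 (SE 0.21), OLIG2 0.13 (SE 0.12), PDGFRA 0.085 (SE 0.083) and CSPG4 0.0064 (SE 0.069). The median over the 29 genes was 0.10, with 27 positive. With 2 surrogate variables it was -0.10, without piglet 227 it was 0.035 with 19 positive, and without piglet 216 it was 0.049 with 23 positive.

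A second list of 52 oligodendrocyte genes, of which 47 were matched and tested, gave no call in any of the 8 comparisons with edgeR, DESeq2 or limma voom. For MILK against VEG within NBW, 3 of the 47 had an unadjusted p under 0.05, next to 6.67% of all genes. CDK18, a kinase found in oligodendrocytes, had a log2 fold change of 0.41 (SE 0.19, adjusted p = 0.735) with 19.0 to 30.8 CPM in MILK-NBW and 9.84 to 23.1 CPM in VEG-NBW. NEU4, a sialidase listed with the precursor genes, had 0.31 (SE 0.15, adjusted p = 0.738), and FYN, a kinase that promotes differentiation and local MBP synthesis, had 0.13 (SE 0.058, adjusted p = 0.738). The groups overlapped for all 3. NEU4 was also the 1 gene of 47 under this limit for diet, next to 4.26% of all genes (0.27, SE 0.10, edgeR unadjusted p = 0.0119, adjusted p = 0.985). Its mean was 6.53 ± 0.930 CPM in MILK-NBW, 5.53 ± 1.24 in MILK-IUGR, 5.23 ± 0.730 in VEG-NBW and 4.76 ± 1.16 in VEG-IUGR. FYN was the 1 gene for the interaction (-0.17, SE 0.081, adjusted p = 0.784), next to 6.09% of all genes. LHFPL3, a membrane protein of precursor cells, was the 1 gene for sex (0.10, SE 0.042, adjusted p = 0.9997), next to 2.94% of all genes. No gene of the 47 was under the limit for birth weight or the other 3 contrasts. The mean standardised score of the 47 was -0.27 ± 0.62 in VEG-NBW, -0.013 ± 0.77 in VEG-IUGR, 0.20 ± 0.30 in MILK-NBW and 0.077 ± 0.44 in MILK-IUGR.

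The 3 libraries left out differed in what they showed of the lineage. Scaled together with the other 35, piglet 202 held 7895 CPM of MBP, inside the 4361 to 16290 CPM of the other VEG-NBW piglets, but 37.8 CPM of CNP, where the others held 256 to 699 CPM. Its OLIG2 was at 4.45 CPM (58 read pairs) and its PDGFRA at 8.90 CPM, both below the range of its group, as were 16 of the 29 genes. Piglet 210 had 0 read pairs for 10 of the 29 genes, CSPG4 and OLIG2 among them, and 2643 CPM of MBP (21188 read pairs), and 23 genes were below the range of VEG-IUGR. Piglet 213 was within the MILK-NBW range for 22 genes, with 11520 CPM of MBP and 444 CPM of CNP, and below it for 4, with 20.1 CPM of OLIG2 and 19.2 CPM of PDGFRA. With all 36 libraries in the fit none of the 29 genes was called in any of the 8 comparisons. PLLP, for IUGR against NBW within VEG, was the 1 gene with an unadjusted p under 0.05. It was also the 1 gene of piglet 210 above the VEG-IUGR range, at 609 CPM (4881 read pairs), where the others held 97.5 to 299 CPM. The share of all genes under 0.05 in the fit of 36 libraries is not given here.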

How the data were processed

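For each piglet the authors deposited the unnormalized counts, as read pairs assigned to each Ensembl pig gene identifier. Per the submitters' processing notes, Trim Galore, HISAT2, HTSeq and DESeq2 were used with Sscrofa11.1; versions, annotation release and strand setting are not given in the sources used here. Symbols came from a table that matched 15029 of the 31907 identifiers, and coordinates from a RefSeq gene table of the same build. Rows that name no gene stayed out of library sizes (7.67% to 12.5% of read pairs in the 33 libraries were on no gene). Members and gene lists were chosen with earlier results of these data known.

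Tests used edgeR 4.0.16 under R 4.3.3 (scaling by TMM, filterByExpr with a minimum count of 10, quasi-likelihood F test, Benjamini-Hochberg adjustment over all genes tested) with sex as covariate. Diet and birth weight were fitted without their interaction; the interaction and the 4 contrasts came from 1 model of the 4 group means. The study dropped 3 libraries for RNA integrity but gave only their groups, so the choice of piglets 202, 210 and 213 is an inference, and all 36 libraries were an alternative. Others were DESeq2 1.42.0, sva 3.50.0 (2 surrogate variables), voom of limma 3.58.1 weighted by sample quality, DESeq2 size factors, no sex term, no filter, leaving out piglet 207, averages over the other factor, and fits of only the 2 groups compared. Leaving out each of the 33 libraries in turn was added after the data were seen. Log2 CPM used a prior count of 2. Log ratios and correlations were tested by permutation in scipy 1.17.1, two-sided, exactly for 2 groups and otherwise with 100000 resamples. The planned pair of MBP with MOBP could not be formed, which left 7 pairs; the family of 58 relations, added after the data were seen, holds every gene with MBP and PDGFRA and 3 further pairs. Named in full were, for each comparison, the 3 members with the smallest p and MBP, PDGFRA, CSPG4 and OLIG2; of the other list, up to 3 with an unadjusted p under 0.05; other genes were chosen after their values were seen. The fit was tested on simulated data. Piglet numbers do not repeat across groups, so no samples were paired. p-values treat piglets as independent, although some share a litter.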

Additional observations from a re-analysis of the deposited data

Results flagged for a closer look

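In 3 of the 128 sets of values from 1 group that were looked at (29 genes and 3 scores in 4 groups), 1 piglet stood apart from the rest of its group by the gap to its neighbour relative to the group's range. Chance sets apart about 1 in 20 such groups, a larger share than the 3 of 128 found here. CNTN2 was 258.5 CPM in piglet 207 of MILK-IUGR, where the other 8 piglets held 383 to 500 CPM. NKX6-2 was 13.6 CPM in piglet 227 of VEG-IUGR, where the other 7 held 1.31 to 3.79 CPM. ENPP6 was 44.6 CPM in piglet 216 of VEG-NBW, where the other 7 held 17.2 to 26.2 CPM. Piglets 207, 227 and 216 were also the highest of their groups for MBP.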

How the results depend on the processing

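No member was called in any of the 8 comparisons under any alternative of the fit or when each of the 33 libraries was left out in turn (lowest and highest count 0 and 0). With single libraries left out, unadjusted p values under 0.05 numbered 0 to 8 members for MILK against VEG within NBW, with 8 without piglet 216. Shares of all genes under that limit are given here only for the edgeR fit of the 33 libraries. The medians of the members depend on single piglets: for IUGR against NBW within VEG they ran from 0.034 (without 227) to 0.34 (without 216), and for MILK against VEG within NBW from 0.15 to 0.35. A median over all genes is set beside that of the members only for diet.

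Over all alternatives, 23 log2 fold changes, none of them called, changed sign and 389 did not. The cause was not tested. With 2 surrogate variables these were NKX2-2 (-0.029), MBP (-0.21) and OLIG2 (-0.073) for sex, SOX10 (0.073), MBP (0.18), PDGFRA (0.019) and OLIG2 (0.0091) for the interaction, PDGFRA (-0.0023) for MILK against VEG within NBW, CSPG4 (0.026) within IUGR, and MBP (0.22) and OLIG2 (0.11) for IUGR against NBW within MILK. With all 36 libraries they were CSPG4 for birth weight (-0.011) and for MILK against VEG within IUGR (0.16), and MBP (0.012) and OLIG2 (0.035) for IUGR against NBW within MILK; the median of all genes then moved by 0.14 for the interaction, 0.13 for MILK against VEG within IUGR and -0.12 for IUGR against NBW within VEG. Without piglet 207 they were CSPG4 for sex (-0.022) and MBP (-0.055), PDGFRA (-0.034) and CSPG4 (0.052) for MILK against VEG within IUGR. In that contrast limma voom gave PDGFRA -0.046 and CSPG4 0.018, DESeq2 size factors gave CSPG4 0.00057 and DESeq2 gave it 0.0031.

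Of the precursor to MBP log ratios, 7 of 18 changed sign with all 36 libraries: PDGFRA for IUGR against NBW within VEG (0.25), CSPG4 for MILK against VEG within IUGR (0.32) and diet (0.053), and OLIG2 for MILK against VEG within NBW (0.097) and IUGR (0.57), for IUGR against NBW within MILK (0.045) and for diet (0.33). With CNP in place of MBP, OLIG2 changed sign for MILK against VEG within NBW (0.0036), within IUGR (0.0100) and for diet (0.0049). With all 36 libraries r for PDGFRA and CSPG4 went from 0.257 to 0.37. For MBP and GABRA6 it changed sign, from -0.351 to 0.43. Both were then past the threshold (adjusted permutation p = 0.0325 each). With DESeq2 size factors r for MBP and GABRA6 was -0.36 (adjusted permutation p = 0.0493). The other 11 refits of pairs, 44 of log ratios and 36 of scores kept sign and side of the threshold, or moved by less than 1 SD. NKX6-2 is limited by depth, with as few as 10 read pairs in a library.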
